A study of Mus musculus with 30 samples.

Results

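A set of 24509 regions carried 5-hydroxymethylcytosine (5hmC) in mouse embryonic stem (ES) cells with floxed Tdg alleles, had no called 5-formylcytosine (5fC) in ES cells, and had no called 5hmC once the cells had formed embryoid bodies (EB). They made up 17.4% of the 140943 5hmC regions of Tdg fl/fl ES cells on chromosomes 1 to 19 and X, and 14.1% of the bases those regions cover. The members were chosen by called overlaps: from the 139794 fl/fl ES 5hmC regions under 4000 bp wide, those were taken that shared at least 1 bp with 5hmC of Tdg -/- ES cells (121904), shared none with 5fC of Tdg -/- or of fl/fl ES cells (35528 left), and shared none with EB 5hmC (24509 left). These overlaps are therefore a description and not a result. Over all 139794 regions, 87.2% overlapped Tdg -/- ES 5hmC, 35.8% were free of ES 5fC in both genotypes, and 52.4% were lost in EB, meaning that no EB 5hmC region overlapped them.

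TET enzymes oxidise 5-methylcytosine to 5hmC and further to 5fC and 5-carboxylcytosine, and thymine DNA glycosylase, the product of Tdg, cuts out the last 2 so that repair can restore plain cytosine. In ES cells 5hmC is abundant over gene bodies and enhancers, and it is remodelled when the cells leave pluripotency. The histone acetyltransferase p300 is a coactivator that binds active and poised enhancers. A region with 5hmC but no 5fC is thus one in which the first oxidation product was called and the next was not, in cells with and without the glycosylase.

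The lists came from Tdg -/- ES cells, from EB of fl/fl cells at day 5, and from fl/fl ES cells, all of the C57BL/6-ICR strain. ES cells grew without feeders in medium with serum, LIF and the inhibitors CHIR99021 and PD0325901, and EB formed in suspension after LIF and both inhibitors were withdrawn. Each group has 1 list, and the labels give 2 libraries per group for 5hmC and for 5fC and 3 for p300. How the libraries of a group were combined into its list is not given. The labels do not say how many clones or cultures stand behind a genotype, and EB of Tdg -/- cells were not analysed here. With 1 list per mark and group there is no spread between replicates, so no difference below was tested, and the Wilson 95% intervals given with shares cover counting error only. The depth behind the lists is unknown. Of 7 ES cell marker genes, 6 were found in the expression tables, at 67.4 to 612 FPKM in Tdg -/- and 70.0 to 631 FPKM in fl/fl ES cells, and Tdg stood at 9.48 FPKM in Tdg -/- and 22.1 FPKM in fl/fl ES cells. No genome of the mm9 build used by the lists was at hand, so genes and sequences at the regions are not given.

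The 5fC-free lost regions were narrow. Their median width was 865 bp, with 714 and 1108 bp at the quartiles, 310 bp for the narrowest and 3927 bp for the widest. The 11019 regions that met every condition but were kept in EB (5fC-free kept regions) had nearly the same widths, with a median of 863 bp and quartiles of 723 and 1051 bp. Regions with 5fC were wider: the 34023 lost in EB had a median of 1171 bp and the 52353 kept in EB one of 1118 bp, again counting regions under 4000 bp that were also called in Tdg -/- ES cells. A wider region meets 5fC by 1 bp more easily, so the rule itself favours narrow members. With overlap by the centre of the region the members' median width was 922 bp. How much of the contrast in width the rule made was not tested. The fullest width bin, 750 to 1000 bp, held 8818 members or 36.0%, and 513, or 2.09%, reached 2000 bp. The limit of 4000 bp took out almost nothing. The widest member, at 13178065 to 13181992 on chromosome 8, measured 3927 bp with a score of 459.59, and the narrowest region beyond the limit, at 109243666 to 109247748 on chromosome 11, measured 4082 bp with a score of 237.38. Only 2 regions at or over 4000 bp met the other conditions.

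The scores were likewise lower than in regions with 5fC. A score is minus 10 times the log10 of the authors' p-value for a region and ranks regions within a list. The median score was 80.1 for the members, 84.1 for the 5fC-free kept regions, 138 for the 5fC-bearing lost regions and 164 for the 5fC-bearing kept regions. In the whole fl/fl ES 5hmC list the median member stood at the 32.5th percentile. Few members were strong, with 385, or 1.57%, at a score of 250 or more, and 5034, or 20.5%, lay under 60, close to the lowest score in the list of 50.

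**Figure D1:**
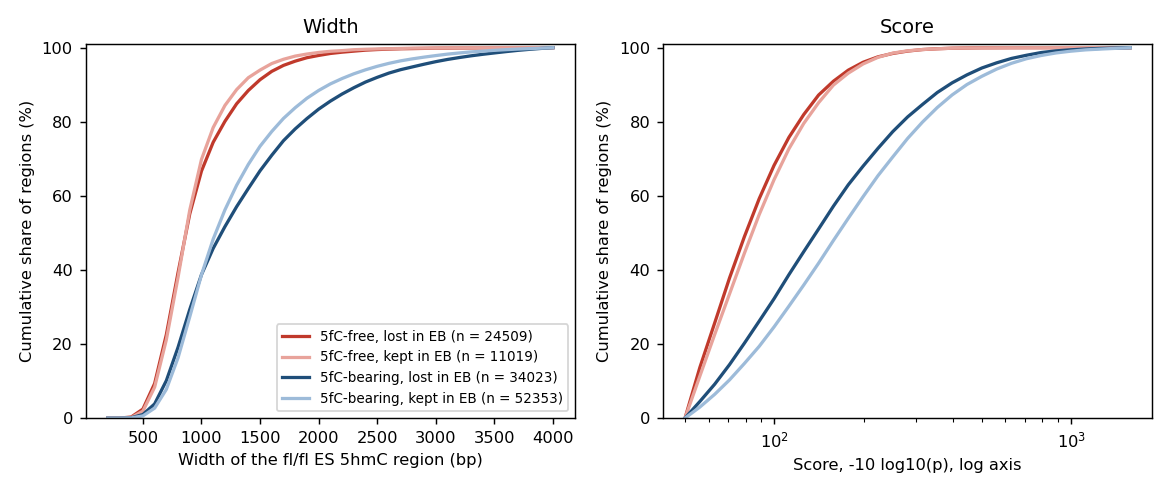
Cumulative share of regions (%) by width in bp (left) and by score on a log axis (right) for 4 classes of fl/fl ES 5hmC regions under 4000 bp that were also called in Tdg -/- ES cells. The curves of 5fC-free regions lost and kept in EB run close together, with median widths of 865 and 863 bp, and both lie left of the 5fC-bearing classes.

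The highest score of any member, 662.19, belonged to a region of 2167 bp at 28923559 to 28925726 on chromosome 16. Its nearest EB 5hmC region lay 971 bp away and its nearest ES 5fC region 1123 bp away. After it came a region with 618.88 at 53551362 to 53553260 on chromosome 4, which stood far from both, at 22426 bp from EB 5hmC and 10077 bp from 5fC of Tdg -/- ES cells. Next in rank, with 589.52 at 83667842 to 83669648 on chromosome 4, lay 551 bp from a Tdg -/- p300 region and 517 bp from a fl/fl one. The fourth, with 576.86 at 140188972 to 140192161 on chromosome 7, was 3189 bp wide and was overlapped by a Tdg -/- 5hmC region of 7611 bp. None of the 4 touched p300, and all start and end positions are printed as deposited, in mm9.

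In Tdg -/- ES cells the members' 5hmC was broader than in fl/fl ES cells. The Tdg -/- region over a member had a median width of 1004 bp, against 865 bp for the fl/fl region, and it was the wider of the pair for 17372 of 24509 members (70.9%). This is close to the 71.7% of 5fC-free kept regions, and the Tdg -/- list as a whole had wider regions, with a median of 1043 bp against 979 bp in the fl/fl list. At 98.6% of the members Tdg -/- 5hmC covered 50% or more of the fl/fl region, so the shared call seldom rested on an edge, and 98.5% had a single Tdg -/- counterpart. The median counterpart stood at the 40.0th percentile of scores in the Tdg -/- list for members, and at the 48.6th for 5fC-free kept regions.

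Loss in EB was more frequent among 5hmC regions without 5fC than among those with it. Of the 35528 5fC-free regions, 69.0% (95% interval 68.5 to 69.5) were lost and are the members. Of the 86376 5fC-bearing regions, 39.4% (39.1 to 39.7) were lost, a difference of 29.6 percentage points (29.0 to 30.2). The lost share was higher without 5fC on 20 of 20 chromosomes. Since both properties belong to the rule that made the members, the contrast describes these lists and has no test. It also moved with score: with the 5fC-bearing regions weighted to the scores of the 5fC-free ones, their lost share was 44.2% and the difference 24.8 points. The EB 5hmC list was shorter than the fl/fl ES one, with 101593 regions against 140943. What part its length had in the lost shares was not tested.

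Among 5fC-free regions the lost share varied by a few points with score. It was 72.1% (71.1 to 73.2) for scores of 50 to 60, 65.9% (64.3 to 67.5) for scores of 150 to 250, and 70.3% (66.3 to 73.9) for scores of 250 or more. Among 5fC-bearing regions it was 48.8% in the lowest and 33.3% in the highest of these bins, declining at each step. The 5fC-free share also fell at each step up to a score of 250, and the intervals at 50 to 60 and 150 to 250 lay apart. Its intervals in the lowest and highest bin overlapped, where those of 5fC-bearing regions lay apart. The highest bin held only 548 5fC-free regions, against 23218 5fC-bearing ones. By width, the lost share of 5fC-free regions was lowest, at 66.5%, for 750 to 1000 bp, and reached 74.2% under 500 bp and 78.3% from 2000 bp. The 5fC-bearing regions had a similar dip, with 34.4% at 1000 to 1500 bp and 51.3% and 48.3% in the narrowest and widest bins.

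**Figure D2:**
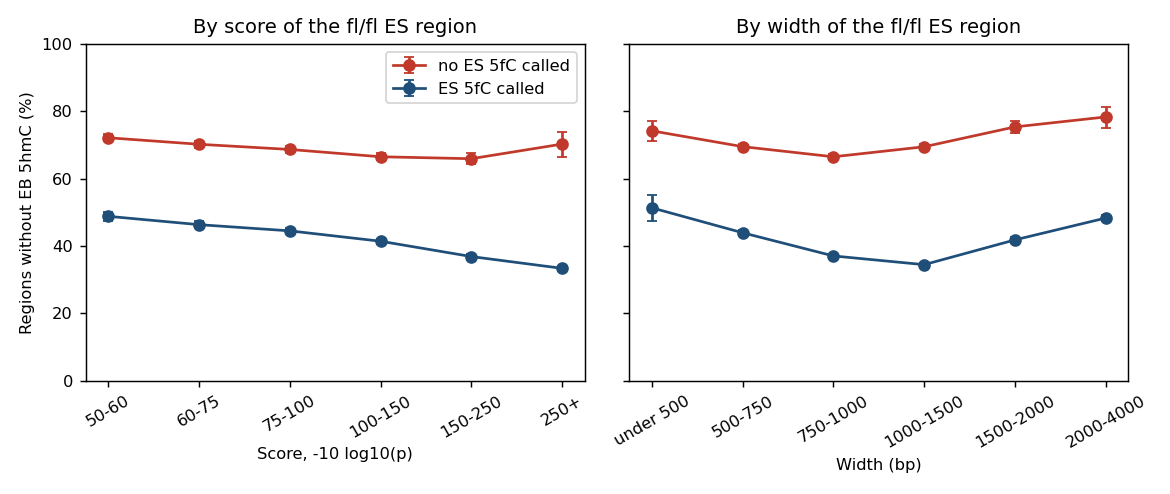
Share of regions with no EB 5hmC (%) by bins of score (left) and of width in bp (right), with Wilson 95% intervals, for regions without ES 5fC (red) and with ES 5fC (blue). The red points stay between 65.9% and 78.3%, and the blue ones between 33.3% and 51.3%.

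EB 5hmC was often found close to the members, though not on them. The median distance from a member to the nearest EB 5hmC region, edge to edge, was 3287 bp, with quartiles of 1144 and 7780 bp. An EB 5hmC region lay within 500 bp of 13.2% of the members, within 1000 bp of 22.6% and within 10000 bp of 81.1% (80.6 to 81.5). The 5fC-bearing lost regions were closer, with a median of 2652 bp and 87.2% (86.8 to 87.5) within 10000 bp. They were also wider and closer to 5hmC of ES cells. Their nearest other fl/fl ES 5hmC region lay at a median of 920 bp, against 1581 bp for members. Counting only 5hmC that was kept, that is fl/fl ES regions overlapped by EB 5hmC, the median distance from a member was 4980 bp and 50.1% lay within 5000 bp, against 3880 bp and 57.7% for 5fC-bearing lost regions. For 69.2% of the members (68.6 to 69.7) the nearest EB region was one that overlapped fl/fl ES 5hmC, where such regions made up 63.8% of the EB list.

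Few members lay in wide stretches without EB 5hmC. Only 152, or 0.620%, were 100000 bp or more from the nearest EB region, against 93, or 0.273%, of 5fC-bearing lost regions. The 3 most distant stood at 64121164 to 64121961 on chromosome 12 (1493245 bp away), at 11065834 to 11066541 on chromosome 7 (1489252 bp) and at 19543837 to 19544328 on chromosome 17 (971476 bp). These were weak and narrow, with scores of 70.98, 99.64 and 56.56 and widths of 797, 707 and 491 bp. Over the distance bins, members grew narrower away from EB 5hmC, with a median of 889 bp under 500 bp of distance and 693.5 bp beyond 100000 bp, while their median score moved only between 76.15 and 82.95.

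**Figure D3:**
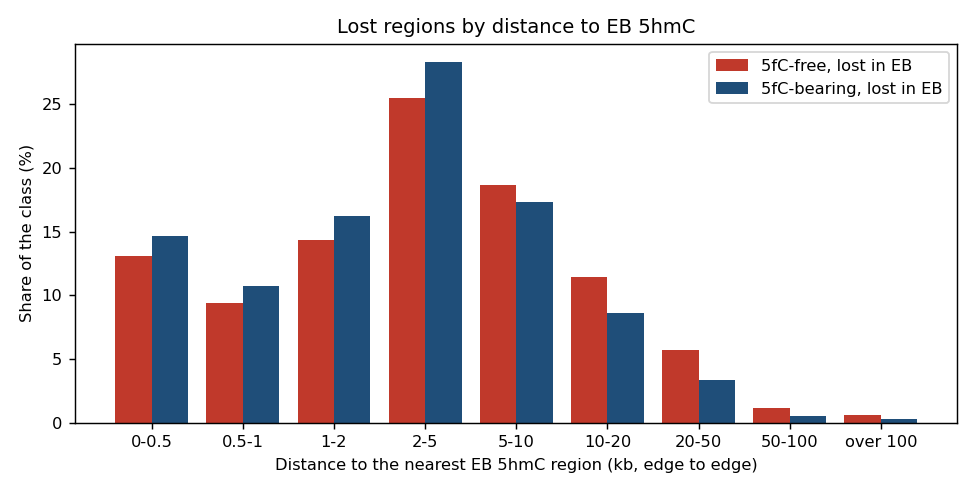
Share of each class (%) in bins of edge-to-edge distance (kb) to the nearest EB 5hmC region, for 5fC-free (red) and 5fC-bearing (blue) regions lost in EB. Both peak at 2 to 5 kb, with 25.5% of 5fC-free and 28.3% of 5fC-bearing lost regions, and the 5fC-free class has a larger share of its regions in each bin beyond 5 kb.

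The members were spread widely. Of 15435 windows of 100000 bp with any fl/fl ES 5hmC, 9941, or 64.4%, held a member, with a median of 1 and at most 14 per window. On the 18 autosomes other than chromosome 11 there were 8.34 (chromosome 1) to 14.2 (chromosome 19) members per Mb of listed span, where fl/fl ES 5hmC regions under 4000 bp numbered 43.8 to 79.0 per Mb. Chromosome X, with few 5hmC regions at all, held 66 members or 0.409 per Mb. In order along the chromosome, 36.2% of the members stood in runs of 2 or more with no other fl/fl ES 5hmC region between. Members were 17.4% of all fl/fl ES 5hmC regions, so runs also occur when members are placed at random among them. The share in runs under random order was not computed, and whether members cluster was not tested. The longest run had 8 members, at 119163417 to 119208729 on chromosome 9. The densest group with no EB 5hmC between them was 10 members in 60032 bp, at 32217131 to 32277163 on chromosome 19, among 18 fl/fl ES 5hmC regions of which 12 were free of 5fC. They were 737 to 3133 bp wide with scores of 52.87 to 220.9, and 2 of them overlapped Tdg -/- p300 and 1 fl/fl p300.

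Lost regions neighboured other lost regions more often than kept regions did. The closest other fl/fl ES 5hmC region was itself lost in EB for 57.6% of the members (57.0 to 58.2) and for 46.4% of the 5fC-free kept regions (45.5 to 47.3), where 52.4% of all regions were lost. The contrast shrank over the first distance bins: with the neighbour under 1000 bp away the shares were 62.3% for members and 38.9% for kept regions, at 1000 to 5000 bp 55.8% and 49.98%, and at 5000 to 20000 bp 53.4% and 53.0%. In 5fC-bearing regions the shares were 61.7% (lost) and 44.7% (kept), and 69.3% and 39.3% under 1000 bp. All these losses were read from the same EB list, with a median width of 1056 bp, and an EB region can overlap both a region and its close neighbour. The part of this in the contrast was not tested. The neighbour carried ES 5fC for 60.4% of the members and 61.4% of the 5fC-free kept regions. For 5fC-bearing regions this share was higher, at 70.2% of those lost and 68.2% of those kept in EB. The nearest 5fC region of either ES genotype lay at a median of 2366 bp from a member, within 1000 bp for 28.8% of the members and within 5000 bp for 69.4%. These values were close to those of 5fC-free kept regions, with a median of 2549 bp, 28.7% and 66.2%.

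On chromosome 11 the members were a smaller share of the 5hmC regions than on any of the other 19 chromosomes. They made up 9.69% of its fl/fl ES 5hmC regions under 4000 bp, against 16.7% to 19.6% on the other 18 autosomes and 15.3% on chromosome X. The 5fC-free part of the regions also called in Tdg -/- ES cells was 14.7% there and 27.1% to 33.6% on the other autosomes. On chromosome 11 the Tdg -/- 5fC list was 4.03 times as long as the fl/fl one, and on the other autosomes 1.86 to 2.35 times. On chromosome X the ratio was higher still, at 5.27, while 32.6% of its regions also called in Tdg -/- ES cells were free of 5fC, and the part of the ratio in the share of members was not tested. The share lost among the 5fC-free regions of chromosome 11, 67.0%, lay within the 66.9% to 72.9% of the other autosomes. On chromosome X, with 111 such regions, it was 59.5% (50.2 to 68.1).

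**Figure D4:**
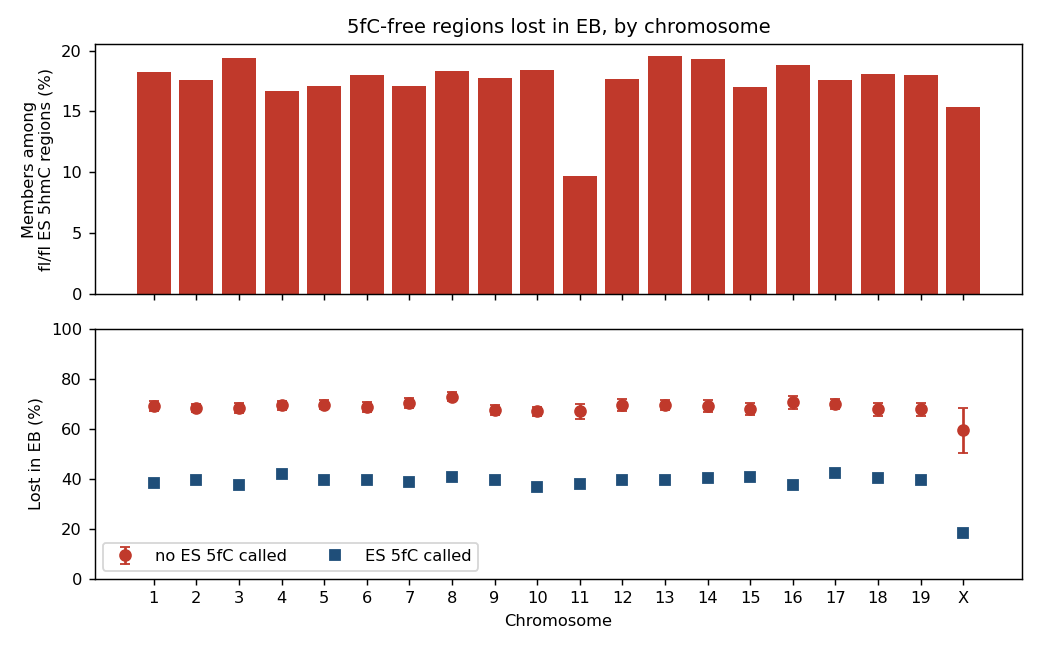
By chromosome, the share of fl/fl ES 5hmC regions under 4000 bp that are members (%, top) and the share lost in EB (%, bottom) among regions without ES 5fC (red, Wilson 95% intervals) and with it (blue). Chromosome 11 stands out in the top panel at 9.69% and not in the bottom panel, where red lies above blue on all 20 chromosomes.

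p300 was rarely found at the members. A Tdg -/- p300 region overlapped 1220 of them (4.98%, 4.71 to 5.26), and a fl/fl p300 region 735 (3.00%, 2.79 to 3.22). Over all 139794 fl/fl ES 5hmC regions under 4000 bp the shares were 11.7% for Tdg -/- and 7.96% for fl/fl p300. The 5fC-free kept regions had 6.43% (5.99 to 6.91) and 4.48% (4.11 to 4.89), the 5fC-bearing lost regions 14.8% and 9.80%, and the 5fC-bearing kept regions 14.5% and 10.6%, for Tdg -/- and fl/fl p300 in that order. The 5fC-free regions, lost or kept, thus had the lower shares, and the larger gap was between regions with and without 5fC. The p300 lists played no part in the choice of members, but 5fC did, and wider regions meet p300 more often. At widths of 750 to 1000 bp, Tdg -/- p300 was at 5.01% of the members. The 5fC-bearing regions of these widths had 10.5% (lost) and 11.5% (kept). At 2000 to 4000 bp the shares were 9.36% for members, 23.9% for 5fC-bearing lost regions and 22.5% for 5fC-bearing kept regions. The part of width in the gap was not tested.

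Set against the 5fC-free kept regions, which had the same median width within 2 bp, the members' share was lower by a small margin: the difference was -1.46 percentage points (-1.99 to -0.924) for Tdg -/- p300 and -1.48 (-1.93 to -1.04) for fl/fl p300. It had this sign on 15 of 20 chromosomes for Tdg -/- and on 18 of 20 for fl/fl p300. Weighting the kept regions to the widths of the members gave -1.56 and -1.53 points. Weighting them to the scores of the members gave -1.38 and -1.45 points. The size depends on how overlap is counted and on the lowest score allowed in the lists. It was -0.458 and -0.561 points where the centre of the 5hmC region had to lie in p300 and the other marks. With scores of at least 100 in each list, which also changes the classes, it was -0.0953 and -0.492 points. In bins of width the Tdg -/- share of the members was 2.01% under 500 bp and 9.36% at 2000 to 4000 bp, where the kept regions had 1.92% and 13.4%.

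**Figure D5:**
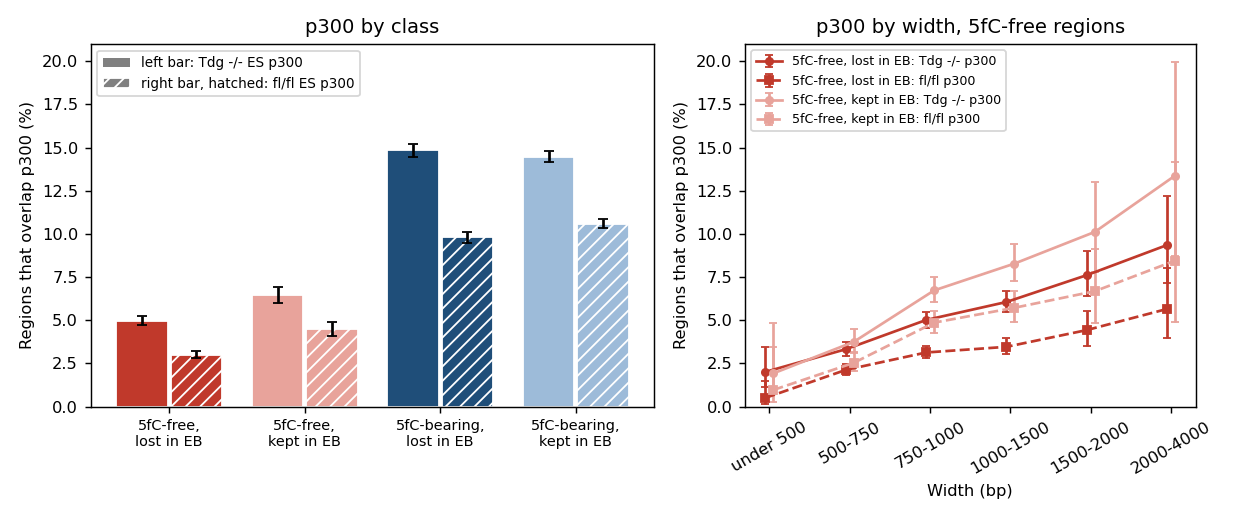
Share of regions that overlap p300 (%) by class (left; plain bars for Tdg -/- and hatched bars for fl/fl ES p300) and by width in bp for 5fC-free regions lost (dark) and kept (light) in EB (right; circles for Tdg -/- and squares for fl/fl p300), with Wilson 95% intervals. The members have 4.98% and 3.00%, the lowest bars, and the share climbs with width in both 5fC-free classes.

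By genotype, p300 was called in both at 571 members (2.33%), in Tdg -/- cells alone at 649 (2.65%) and in fl/fl cells alone at 164 (0.669%). Over all fl/fl ES 5hmC regions under 4000 bp, p300 in Tdg -/- cells alone was at 5.91% and in fl/fl cells alone at 2.21%. The Tdg -/- share of members was above the fl/fl share on 20 of 20 chromosomes, and the Tdg -/- p300 list is the longer, with 43345 regions against 32160. On chromosome 11 this rested on 25 members against 20, and on chromosome X on 3 against 1. The other classes had the reverse order on chromosome 11. Tdg -/- and fl/fl p300 were there at 2.91% and 3.88% of 5fC-free kept, 11.1% and 13.8% of 5fC-bearing lost, and 8.29% and 13.1% of 5fC-bearing kept regions. At the members' own p300 sites the p300 call was of middling rank: its median score stood at percentile 50.9 of the Tdg -/- p300 list and at percentile 51.3 of the fl/fl one. The members with the highest 5hmC scores and p300 in both genotypes lay at 171463058 to 171465522 on chromosome 2 (5hmC score 413.28), at 78807294 to 78808839 on chromosome 17 (372.34) and at 65441850 to 65444026 on chromosome 9 (345.28). In each the p300 score was higher in its own list in Tdg -/- cells (363.12, 265.04 and 429.89) than in fl/fl cells (96.48, 61.13 and 204.23), but such scores grow with depth and are not comparable between lists.

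Members with p300 were wider and nearer to EB 5hmC and Tdg -/- 5fC by their medians, and those with p300 in Tdg -/- cells also had higher scores. The 571 with p300 in both genotypes had a median width of 955 bp and a median score of 90.2, against 860 bp and 79.7 for the 23125 without p300. Their nearest EB 5hmC lay at a median of 2581 bp, against 3351 bp, and their nearest Tdg -/- 5fC at 1553 bp, against 2646 bp. The 164 with p300 in fl/fl cells alone had a median width of 919.5 bp and a median score of 79.6, no higher than that of members without p300. Tdg -/- p300 was at 5.88% of the members under 500 bp from EB 5hmC and at 3.92% of those 10000 to 20000 bp away, and fl/fl p300 at 3.61% and 2.43%. The Tdg -/- share did not fall steadily with distance. It was 4.86% at 1000 to 2000 bp, 5.68% at 2000 to 5000 bp, 4.14% at 20000 to 50000 bp and 4.61% (7 of 152) beyond 100000 bp. Counting p300 on or within 5000 bp of a member, a Tdg -/- p300 region was found for 33.5% (32.9 to 34.1) and a fl/fl one for 26.1% (25.5 to 26.6). The 5fC-free kept regions had 32.9% for Tdg -/- and 25.7% for fl/fl p300, and the 5fC-bearing regions had more, with 44.8% and 36.9% of those lost and 40.5% and 32.7% of those kept.

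Seen from p300, 5fC-free regions with it were lost less often. Of the 931 with p300 in both genotypes 61.3% (58.2 to 64.4) were lost, of the 998 with p300 in Tdg -/- cells alone 65.0% (62.0 to 67.9), and of the 298 with p300 in fl/fl cells alone 55.0% (49.4 to 60.6), against 69.4% (68.9 to 69.9) of the 33301 without p300. Among 5fC-bearing regions the shares were 40.6%, 39.4% and 30.5%, against 39.6% without p300.

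The EB 5fC list met few members. The rule does not use this list, but it removes regions with ES 5fC or EB 5hmC. Of the 5fC-bearing kept regions, which lack neither, 25.2% (24.8 to 25.6) overlapped EB 5fC. A low share among members thus follows in part from how they were chosen. EB 5fC overlapped 169 of the members (0.690%, 0.593 to 0.801). It overlapped 12.1% of all fl/fl ES 5hmC regions under 4000 bp, 3.66% (3.32 to 4.02) of 5fC-free kept regions and 7.88% (7.60 to 8.17) of 5fC-bearing lost regions. These 169 regions had 5hmC without 5fC in ES cells of both genotypes and 5fC without called 5hmC in EB. Members with p300 in both genotypes met EB 5fC in 21 of 571 cases (3.68%) and members without p300 in 128 of 23125 (0.554%). The highest 5hmC scores among them were 354.79 at 48637899 to 48639302 on chromosome 4, 291.23 at 92020098 to 92022468 on chromosome 16 and 280.28 at 53536183 to 53537615 on chromosome 19. All 3 overlapped p300 of Tdg -/- ES cells, the second also of fl/fl ES cells, and their nearest EB 5hmC lay 2224, 132 and 1209 bp away. The Tdg -/- p300 scores were 52.54, 50.08 and 1098.34, and the fl/fl score of the second was 58.88. All but 1098.34 were thus close to 50, the lowest score of both p300 lists.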

How the data were processed

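The authors deposited 8 region lists, 1 per mark and group, and 2 tables of FPKM values, 1 per ES genotype. Each list has a deposited score per region, which the file headers of 4 of them (5fC and 5hmC in ES cells) give as minus 10 times the log10 of the p-value. The remaining 4 have no header, and the same scale was assumed for them. Bowtie, MACS 1.4 and the build mm9 are named in the submitters' processing notes, which also name TopHat 1.4.1 and Cufflinks 1.3.0; how replicates were pooled, and the threshold, are not given in the sources used here. No score lay under 50 in any list, nor under 60.92 in that of fl/fl ES 5fC. Whether starts count from 0 or 1 is not given. Files hold no read numbers, and 8 of the 30 libraries have no list here and were not used.

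Widths are end minus start, overlap is 1 bp, and distances run edge to edge, computed with Python 3.11.15, numpy 2.4.6 and scipy 1.17.1 and tested on simulated intervals. Rows of the FPKM tables with the same symbol were summed. Regions are named by rule: the 4 highest-scoring members, the 3 highest-scoring with p300 in both genotypes, the 3 farthest from EB 5hmC, the 3 highest-scoring with EB 5fC, the densest group, and the regions next to the width limit; the longest run was added after its values were seen. The members, classes and measures were chosen with earlier results of these data known.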

Additional observations from a re-analysis of the deposited data

How the results depend on the processing

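No paired analysis was possible because each group has 1 list and no test was run. No replicate could be left out for the same reason. Of the recomputed values, 59 stayed within the counting interval of the value reported (1.5 times for the number of members) and 47 did not. None of the differences changed sign. With scores of at least 100, however, the Tdg -/- p300 shares of members and 5fC-free kept regions were nearly equal, at 4.43% and 4.53%. Intervals were not computed for the alternatives. The values that moved were the following. With overlap by the centre of the region, members were 21.1% of fl/fl ES regions, met p300 at 2.02% (Tdg -/-) and 1.04% (fl/fl), and had a median width of 922 bp and a median distance to EB 5hmC of 2897 bp; the p300 differences from 5fC-free kept regions were -0.458 and -0.561 points and the difference in lost share 30.6 points. With overlap over at least 50% of the region these were 22.7%, 1.83%, 0.961%, 941 bp, 2895 bp, -0.402, -0.435 and 30.2 points, with a lost share of 68.3%. Counting EB 5hmC within 1000 bp as kept gave 13.6%, 4.70% with Tdg -/- p300, 858 bp, 4829 bp, a lost share of 53.4% and a difference of 24.0 points. Scores of at least 100 gave 21.5%, 4.43%, 2.52%, 1145 bp, 5927 bp, 78.5%, -0.0953, -0.492 and 28.7 points. Merging regions closer than 1000 bp left 16126 members, 16.6% of regions, 4515 bp from EB 5hmC, with a lost share of 67.3% and a difference of 33.4 points. Leaving out EB 5fC too gave a lost share of 69.6% and a difference of 30.3 points, and leaving out chromosome 11 a member share of 17.9%. The lowest score of the fl/fl 5fC list applied to each 5fC list, chosen after seeing the data as were the alternatives for the differences other than the weightings, gave 19.6%, 5.32%, 3.25%, 871 bp, 67.1% and 28.6 points. Weighting the 5fC-bearing regions to the scores of the 5fC-free ones gave a difference in lost share of 24.8 points. The cause of these moves was not tested. Unknown depth and a single list per group limit each value, and a region that misses the caller's threshold counts as lost.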

Other observations

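Crowding and the distance to 5fC also went with loss among 5fC-free regions. Where the closest other fl/fl ES 5hmC region lay under 500 bp away, 71.1% (70.1 to 72.0) of the 5fC-free regions were lost in EB, and where it lay 50000 bp or more away 57.7% (54.0 to 61.4) were. Among 5fC-bearing regions the same bins had 45.6% and 21.2%. By distance to the nearest ES 5fC region, 67.6% (66.4 to 68.8) of 5fC-free regions were lost under 500 bp, 71.0% at 500 to 1000 bp and 59.6% (56.5 to 62.6) from 50000 bp. Members under 500 bp from ES 5fC met Tdg -/- p300 at 7.54% and fl/fl p300 at 4.74%, and those 50000 bp or more away at 2.67% and 1.33%.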
